A study of Schmidtea mediterranea with 40 samples.

Results

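The stage 5 (S5) embryos of the planarian Schmidtea mediterranea were compared with the stage 4 (S4) embryos that precede them, across every transcript of the deposited expression table. The members were the 8 libraries that the labels give to these stages, 4 from S4 (day 4 after egg capsule deposition) and 4 from S5 (day 6), of 40 libraries in the series. Each library was polyadenylated RNA from a single untreated embryo, dissected out of an egg capsule laid by sexually reproducing, outbred adults, so that the embryos of a stage could differ in genotype. The sources give no allele, transgene or agent for either stage. The embryos sequenced had been picked from larger collections for RNA quality and yield, size and appearance, and a stage spans a window of development. The labelled age and stage are therefore the only differences between the groups that the labels record, and size or exact age within a stage cannot be told apart from the stage.

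Planarian embryos develop among yolk cells rather than from a yolk-filled egg. In these stages the embryo proper is a sphere with a transient ectoderm, a temporary pharynx that swallows yolk cells, and embryonic gut cells that hold the ingested yolk, while undifferentiated dividing blastomeres lie between. In later stages these transient parts give way to definitive tissues made by cells that express piwi-1, as neoblasts, the dividing stem cells of the adult, do. Neoblast daughters of the epidermal lineage pass through an early progeny state marked by prog-1 and NB.32.1g and a late progeny state marked by AGAT genes before they join the epidermis.

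Values were RPKM (reads scaled for transcript length and library size), and changes were differences of log2(RPKM + 0.1), S5 minus S4, fitted with limma, each given ± its standard error (SE) with a Benjamini-Hochberg adjusted p over 31489 tested transcripts. This scale understates the change of transcripts that are low in one stage. Calls were made by both a broad and a strict rule. At adjusted p under 0.05, 5456 transcripts (17.3% of those tested) were higher in S5 and 2309 (7.33%) were lower. Under the strict rule, which asks for an adjusted p under 1e-05, a change of 5-fold or more and a mean RPKM of 1 or more in whichever stage was higher, 116 transcripts (0.368%) were higher and 39 (0.124%) were lower. In all 155 strict calls the 4 S5 libraries did not overlap the 4 S4 libraries, which held for 21.2% of all tested transcripts. The median change of all tested transcripts was 0.39. It was -0.05 after quantile normalization and 0.79 without the authors' TMM scaling (trimmed mean of M values, a library scaling that discounts transcripts with extreme changes). The share of broad calls that were higher in S5 moved likewise, from 70.3% to 55.5% after quantile normalization and to 94.3% without that scaling, and for strict calls from 74.8% to 45.7% and 95.7%. Changes of gene lists are therefore to be read against 0.39, and counts of their members that rose or fell against 17.3% and 7.33%. The strict counts also moved with single libraries: they were 52 higher and 21 lower without S4 library 1, 56 and 23 without S4 library 2, 61 and 19 without S4 library 3, 51 and 21 without S5 library 2, 43 and 15 without S5 library 3, and 57 and 23 without S5 library 4. A limma fit on the 8 S4 and S5 libraries alone, with its smaller number of libraries to estimate the spread, gave 0 strict calls, 3248 higher and 1647 lower at adjusted p under 0.05, and 10431 transcripts at an unadjusted p under 0.05.

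Depth and yolk content varied within each stage and overlapped between the stages. Reads rebuilt from the RPKM steps came to 7650020 to 10139110 per S4 library and 8749850 to 12219755 per S5 library. A set of 600 transcripts that were high in isolated yolk took 52.45% to 69.43% of reads in S4 and 45.11% to 65.03% in S5, and 17842 to 23192 transcripts were above 0 in S4 libraries against 22322 to 27123 in S5 libraries. S5 library 1 was the most yolk-rich S5 library and the one most correlated with S4 (mean r = 0.892 with the S4 libraries, against 0.859 to 0.885 for S5 libraries 2 to 4, across transcripts). The part of the yolk share in the changes between the stages was not tested.

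**Figure D1:**
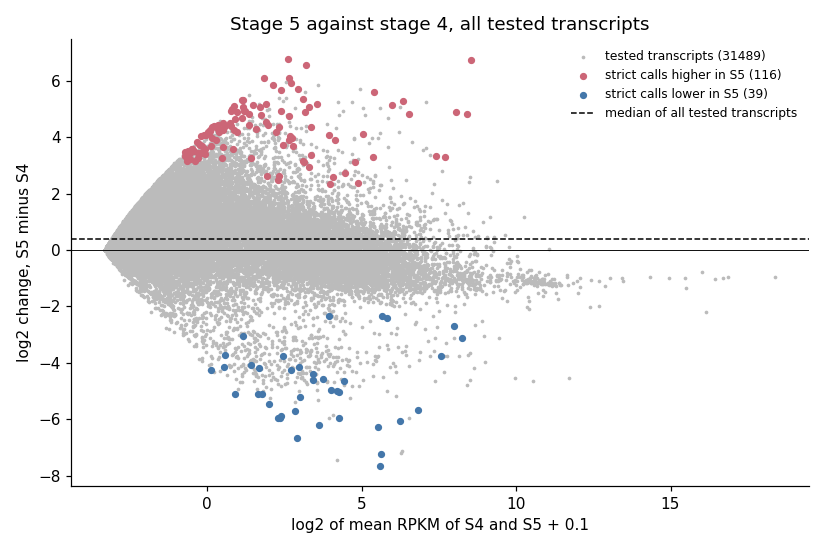
Log2 change from S4 to S5 (vertical axis) against the log2 of the mean RPKM of both stages plus 0.1 (horizontal axis), 1 point per tested transcript. The 116 strict calls higher in S5 reach a change of 6.77 and the 39 lower calls a fall of 7.64, and the dashed line marks the median of 0.39.

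Every listed transcript of the epidermal lineage was higher in S5. All 19 rose at adjusted p under 0.05, 2 of them by the strict rule, with a median change of 3.57 and a range of 2.62 to 5.37. Many of them are genes that the study names as enriched in S5 in these libraries, so that the count is a description and no independent evidence of the direction. The regulators of the lineage were high in every S5 embryo. soxP-3 (SMED30008505), a Sox-family regulator expressed in the zeta class of neoblasts that makes epidermis, was at 0.235, 0.239, 0.416 and 0.324 RPKM in S4 libraries 1 to 4 and at 17.6, 21.4, 15.6 and 12 RPKM in S5 libraries 1 to 4. The groups did not overlap, and the change was 5.37 ± 0.55 SE, adjusted p = 1.1e-07. egr-1 (SMED30012332), an early growth response factor, went from 0.339, 0.863, 0.599 and 0.389 RPKM to 15.9, 27.9, 20.1 and 27.1 RPKM (5.17 ± 0.58 SE, adjusted p = 5e-07). p53 (SMED30026364), which in planarians is needed for the epidermal lineage, was already measurable in S4 at 2.18, 1.23, 3.2 and 6.98 RPKM and stood at 26.1, 32.6, 21.4 and 27.2 RPKM in S5 (3.20 ± 0.50 SE, adjusted p = 3.9e-05). zfp-1 (SMED30023708), a zinc finger factor required for the zeta class, moved from 1.92, 1.95, 3.38 and 5.37 RPKM to 26.2, 21.1, 13.7 and 14.4 RPKM (2.62 ± 0.59 SE, adjusted p = 0.0016). In S5 library 1 egr-1 was the lowest and zfp-1 the highest of the stage. Over 8 regulators of the lineage the median difference of that library from the mean of the other 3 was -0.01 on the log2 scale.

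The progeny markers behaved otherwise within S5. prog-1 (SMED30035904), the marker of early progeny, was at 2.72, 4.85, 3.9 and 4.36 RPKM in S4 and at 18.8, 116, 93.3 and 78.4 RPKM in S5 (3.99 ± 0.65 SE, adjusted p = 5.7e-05). NB.32.1g (SMED30002134), another early progeny marker, was at 2.41, 5.73, 8.52 and 7.92 RPKM and 18.6, 200.2, 173 and 172 RPKM (4.19 ± 0.73 SE, adjusted p = 0.00012). S5 library 1 lay above every S4 library for both but well below the other 3 S5 libraries. AGAT-1 (SMED30018353), an amidinotransferase-family marker of late progeny, was at 1.23, 1.97, 2.48 and 2.5 RPKM in S4 and at 11.9, 99.5, 123 and 143 RPKM in S5 (5.03 ± 0.80 SE, adjusted p = 4.2e-05). AGAT-2 (SMED30009513) showed the same shape, with 2.85, 3.51, 4.9 and 4.06 RPKM in S4 and 9.27, 89.5, 125 and 127 RPKM in S5 (3.97 ± 0.65 SE, adjusted p = 6e-05). Other late progeny transcripts were near their S4 level in S5 library 1. odc-1 (SMED30034746), an ornithine decarboxylase, was at 0, 0, 0 and 0.14 RPKM in S4 and at 0.294, 2.39, 10.8 and 7.21 RPKM in S5 (4.58 ± 0.82 SE, adjusted p = 0.00016), with 2 rebuilt reads in all of S4 and a ratio of pooled RPKM of 106 with a 95% counting interval of 29.1 to 876. pmp-10 (SMED30005357), which the study places with late progeny, was at 0.721, 1.1, 0.318 and 0.661 RPKM in S4 and 0.464, 4.95, 32.3 and 15.5 RPKM in S5 (3.04 ± 0.81 SE, adjusted p = 0.0065). cyp3142A1 (SMED30031568), a cytochrome P450, was at 0.144, 0.146, 0.127 and 0.197 RPKM and 0.185, 2.16, 13.5 and 9.16 RPKM (3.57 ± 0.93 SE, adjusted p = 0.0056). In S5 library 1 pmp-10 and cyp3142A1 lay within the range of S4 and odc-1 just above it, while S5 libraries 2 to 4 lay above every S4 library for all 3 genes.

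As a description of that 1 library, its difference from the mean of the other 3 S5 libraries had a median of -2.47 over 3 early progeny transcripts and -3.76 over 8 late progeny transcripts on the log2 scale, beside -0.17 over all tested transcripts. Its yolk share of reads was 65.03%, against 45.11% to 53.86% in the other 3, and the part of yolk in these differences was not tested. Without S5 library 1 and S4 library 4, which was the S4 library with the least yolk, all 19 members still rose and their median change was 4.63, beside 0.52 over all tested transcripts. The progeny markers were higher again at S6. Their means there were 536 RPKM for prog-1, 734 RPKM for NB.32.1g and 188 RPKM for AGAT-1, against 22.1 RPKM for soxP-3, whose S5 mean was 16.6 RPKM.

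**Figure D2:**
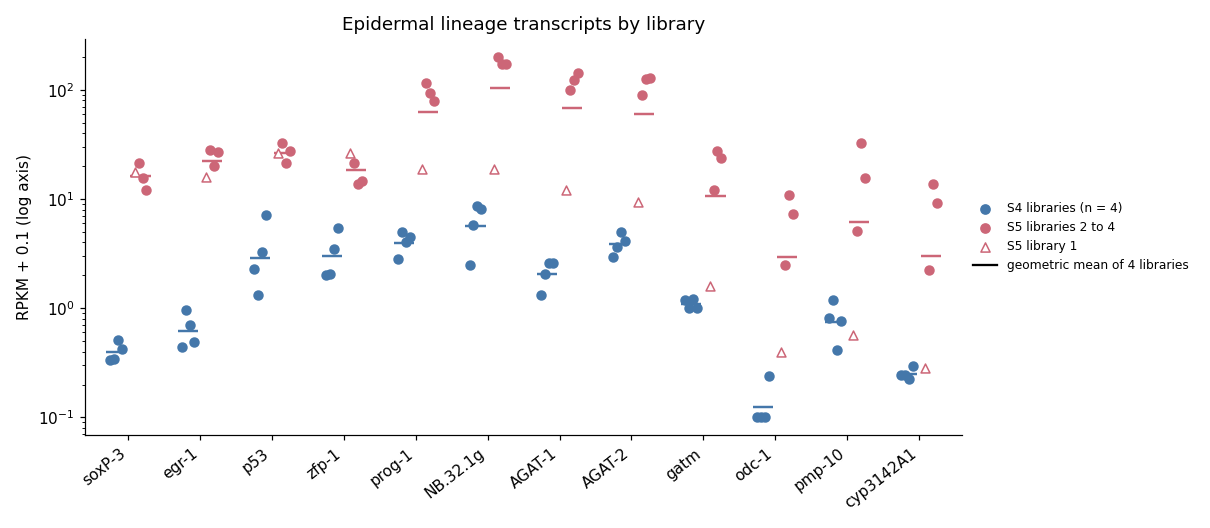
RPKM plus 0.1 on a log axis for 12 epidermal lineage transcripts, 1 symbol per library, with the geometric mean of the 4 libraries of each stage as a bar. The open triangle, S5 library 1, lies among the other S5 libraries for soxP-3 and p53, just below them for egr-1, above them for zfp-1, between the stages for prog-1, NB.32.1g, AGAT-1 and AGAT-2, and at or near the S4 points for gatm, odc-1, pmp-10 and cyp3142A1.

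Regulators of the nervous system mostly rose from 0 or a few reads in S4. Of 18 neural regulators 14 rose, 1 fell and 3 did not pass the test, and 7 rose by the strict rule, whereas 17.3% of all tested transcripts rose and 7.33% fell. Their median change was 3.36, or 3.77 with genes listed at 0 throughout a stage set at their bound. soxB-1 (SMED30025778), of the SoxB family that marks ectodermal and neural progenitors in many animals, was listed at 0 in all 4 S4 libraries and at 4.77, 8.2, 7.7 and 6.88 RPKM in S5 libraries 1 to 4 (6.10 ± 0.54 SE, adjusted p = 1.3e-08). Against a floor of 3 reads over the 4 S4 libraries together this was at least 89.4-fold higher, a bound that covers counting error only. pou4 (SMED30032426), a POU-domain factor of sensory neurons, was at 0, 0.172, 0 and 0.0776 RPKM in S4 and at 2.94, 3.77, 3.96 and 2.02 RPKM in S5 (4.42 ± 0.48 SE, adjusted p = 2.8e-07), a ratio of pooled RPKM of 50.7 with a 95% counting interval of 13.9 to 422. coe (SMED30005164), a collier-type factor needed for planarian neural differentiation, was at 0, 0.256, 0.111 and 0.0576 RPKM and 1.37, 4.4, 8.99 and 4.28 RPKM (4.44 ± 0.59 SE, adjusted p = 5.3e-06). All 3 were present in every S5 embryo, and no S4 library reached an S5 library.

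LIM-homeobox and paired-type members followed. isl-1 (SMED30002801), a factor of several neuron classes, was at 0, 0.143, 0 and 0.129 RPKM in S4 and 3.08, 3.68, 7.17 and 2.61 RPKM in S5 (4.67 ± 0.55 SE, adjusted p = 1e-06, ratio of pooled RPKM 55.5 with a 95% counting interval of 18.8 to 271). pitx (SMED30009752), needed for serotonergic neurons in planarians, was at 0, 0.378, 0 and 0.085 RPKM and 3.7, 4.49, 5.32 and 5.77 RPKM (4.82 ± 0.64 SE, adjusted p = 5.3e-06, ratio 47.5 with a 95% counting interval of 16.1 to 232). Pax6A (SMED30024586) was higher in S4 library 4 than in the other S4 libraries, at 0.124, 0.127, 0.439 and 2.33 RPKM, and reached 5.36, 7.85, 6.68 and 6.33 RPKM in S5 (3.70 ± 0.81 SE, adjusted p = 0.0012). Not every proneural gene was present in each S5 embryo. ascl-2 (SMED30002500), an achaete-scute homolog, was listed at 0 throughout S4 and at 0, 0.917, 1.35 and 1.1 RPKM in S5 (2.70 ± 0.59 SE, adjusted p = 0.0013). ptf-4 (SMED30005182) was listed at 0 throughout S4 and at 0, 0.938, 2.57 and 0.422 RPKM in S5 (2.62 ± 0.64 SE, adjusted p = 0.0034). Both were at 0 in S5 library 1, so that the groups touched. neuroD-2 (SMED30004868) did not pass the test, with 0, 0, 0.304 and 0.316 RPKM in S4 and 0.666, 0.226, 1.44 and 0.228 RPKM in S5 (1.56 ± 0.65 SE, adjusted p = 0.081), although it passed without S4 library 4 (adjusted p = 0.041). hesl-1 (SMED30006440), a Hes-family gene whose relatives repress neural differentiation in other animals, was the only listed neural regulator that fell, from 4.76, 4.15, 6.61 and 14.7 RPKM to 0.657, 1.56, 0.284 and 0.45 RPKM (-3.23 ± 0.93 SE, adjusted p = 0.012), and it stayed low at S6 with a mean of 0.262 RPKM. It belongs to the transcripts that the study selected as embryo-enriched on these samples.

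Of 25 transcripts annotated as prohormones or neuropeptide precursors 1 rose and none fell, with a median change of 0.54, beside 0.39 over all tested transcripts. They were found by name within the study's supplementary lists, which include transcripts it chose as enriched at later stages of these samples. The count is therefore a description, beside 17.3% higher and 7.33% lower over all tested transcripts. After quantile normalization the median of the list was -0.08, beside -0.05 over all tested transcripts. By that normalization, and by voom on rebuilt reads, none of the 25 rose. The 1 call, neuropeptide precursor-22 (SMED30015821), which encodes a signalling peptide, was at 0, 0, 0.529 and 0.549 RPKM in S4 and 0.772, 0.392, 6.34 and 1.59 RPKM in S5 (2.54 ± 0.82 SE, adjusted p = 0.024), with overlapping libraries. The call was lost without S4 library 1 or 2 or S5 library 3 or 4, with adjusted p from 0.05 to 0.13. Its S6 mean was 26 RPKM. No member of this list was apart between the stages. For 12 of the 18 neural regulators all S5 libraries lay above all S4 libraries, as they did for 14.2% of all tested transcripts, but some of these regulators are genes that the study names as higher from S5 or S6 in these libraries.

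All 6 eye regulators and all 6 protonephridial regulators rose, 1 gene being in both lists, beside 17.3% of all tested transcripts. Many of them are genes that the study names as enriched in S5 or S6 in these libraries, so that the counts are a description. In the excretory list, pou2-3 (SMED30030379), a POU factor of protonephridial progenitors, was at 0, 0.155, 1.08 and 0.209 RPKM in S4 and 2.45, 3.99, 6.24 and 4.13 RPKM in S5 (3.72 ± 0.78 SE, adjusted p = 0.00084). sal1 (SMED30017326), a spalt-like factor, was listed at 0 throughout S4 and at 0.963, 1.74, 1.85 and 0.945 RPKM in S5 (3.82 ± 0.51 SE, adjusted p = 4.8e-06, at least 18.9-fold higher). These excretory regulators were apart between the stages. sp6-9 (SMED30011934), needed for the optic cup, was at 0.286, 0, 0.505 and 0.656 RPKM in S4 and 2.95, 5.15, 6.14 and 3.98 RPKM in S5 (3.62 ± 0.62 SE, adjusted p = 0.0001). otxA (SMED30007326), a photoreceptor regulator, was at 0.116, 0, 0.102 and 0.212 RPKM and 0.522, 0.947, 2.19 and 0.805 RPKM (2.49 ± 0.57 SE, adjusted p = 0.0019). For all 4 genes the groups did not overlap, and S5 library 1 was the lowest of its stage except for sal1, where library 4 was slightly lower.

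Of 7 muscle and mesenchyme regulators 6 rose, 4 by the strict rule, and 1 did not pass the test, with a median change of 4.20. The share that rose over all tested transcripts was 17.3%. The foxF1-like, TBX20 and nkx1-like members are also in the study's supplementary lists, which include transcripts chosen as stage-enriched on these samples. The count is therefore a description and no independent evidence of the direction. foxF1-like a (SMED30021716), a forkhead factor of visceral mesoderm in other animals, was at 0, 0.224, 0.194 and 0.403 RPKM in S4 and 2.4, 6.9, 8.17 and 4.73 RPKM in S5 (4.29 ± 0.51 SE, adjusted p = 1.1e-06). foxF1-like b (SMED30024792) was at 0, 0.368, 0 and 0.166 RPKM and 3.96, 3.79, 1.91 and 4.42 RPKM (4.20 ± 0.44 SE, adjusted p = 1.7e-07). Both were apart between the stages. TBX20 (SMED30019532), a T-box factor, was listed at 0 throughout S4 and at 0.787, 2.44, 2.84 and 1.35 RPKM in S5 (4.14 ± 0.47 SE, adjusted p = 6.5e-07, at least 26.6-fold higher). nkx1-like (SMED30019740), an NK-class homeobox factor, was likewise listed at 0 in S4 and at 0.755, 2.56, 2.4 and 2.07 RPKM in S5 (4.23 ± 0.41 SE, adjusted p = 5.4e-08, at least 19.2-fold higher). snail (SMED30023573), whose homologs act in mesoderm of flies and vertebrates, was at 9.34, 6.44, 8.97 and 9.62 RPKM in S4 and 6.33, 6.6, 5.85 and 4.13 RPKM in S5 (-0.58 ± 0.42 SE, adjusted p = 0.34).

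Of 19 transcripts annotated as sarcomere components 1 rose (5.3%) and 6 fell (31.6%), beside 17.3% and 7.33% of all tested transcripts. Their median change was -0.60, beside 0.39 over all tested transcripts. Without the TMM scaling these medians were 0.18 and 0.79. All 6 that fell belong to the transcripts that the study chose on these samples as embryo-enriched, so that their direction is no independent evidence. A tropomyosin (SMED30013113) fell from 159, 279, 170.0 and 266 RPKM to 20.9, 20.8, 7.78 and 11.3 RPKM (-3.91 ± 0.90 SE, adjusted p = 0.002). A striated-type myosin heavy chain (SMED30020435), the motor of the thick filament, fell from 30.7, 51.8, 29 and 40.05 RPKM to 3.83, 2.89, 3.09 and 0.906 RPKM (-3.90 ± 0.68 SE, adjusted p = 0.00013). The libraries of the stages were apart for both. The member that rose was another tropomyosin (SMED30002983), at 2.94, 3.42, 3.71 and 5.58 RPKM in S4 and 4.73, 10.1, 28.1 and 8.48 RPKM in S5 (1.42 ± 0.53 SE, adjusted p = 0.049), with overlapping libraries. Its call was lost when S4 library 1, 2 or 3 or S5 library 2, 3 or 4 was left out, with an adjusted p of up to 0.24 (without S5 library 3). Later levels of the tropomyosins also differed: the S6 mean was 0.258 RPKM for the tropomyosin that fell and 180.0 RPKM for the one that rose, and asexual adults had 0.076 and 399 RPKM. The tropomyosins are annotated to the same protein, and their sequences were not compared, so that reads common to both may be divided between them.

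**Figure D3:**
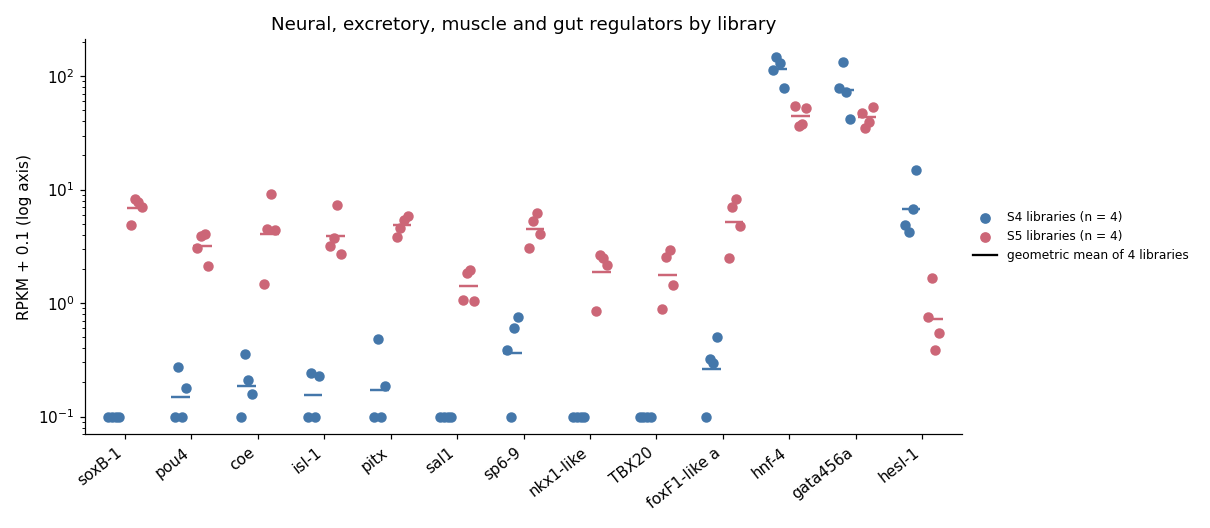
RPKM plus 0.1 on a log axis for 13 regulators, 1 point per library, with the geometric mean of each stage as a bar; a point at 0.1 is listed at 0. From soxB-1 to foxF1-like a the S5 libraries lie above all S4 libraries, whereas all S5 libraries lie below all S4 libraries for hnf-4 and hesl-1, and the stages overlap for gata456a.

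Gut regulators and digestive enzymes did not move as 1 group. hnf-4 (SMED30005748), a nuclear receptor of gut progenitors, was high in both stages and fell from 114, 148, 132 and 77.9 RPKM to 54.3, 36.4, 37.7 and 52.8 RPKM (-1.36 ± 0.23 SE, adjusted p = 0.00011). gata456a (SMED30007290), the GATA factor of the gut lineage, was at 79.1, 133, 72.2 and 42 RPKM and 47.6, 34.9, 39.3 and 53.6 RPKM and did not pass the test (-0.79 ± 0.30 SE, adjusted p = 0.053), but it passed without S4 library 4 (-1.07, adjusted p = 0.0088). prox-1 (SMED30016901), a homeobox gene of gut progenitors, rose from 0, 0, 0.28 and 0 RPKM to 0.509, 4.04, 4.76 and 3.88 RPKM (4.24 ± 0.61 SE, adjusted p = 1.3e-05, ratio of pooled RPKM 62.5 with a 95% counting interval of 17.1 to 519). nkx2.2* (SMED30011793), a homeobox gene, rose from 0.772, 0, 0.341 and 1.94 RPKM to 2.4, 2.86, 4.19 and 2.51 RPKM (2.51 ± 0.79 SE, adjusted p = 0.019), a call that was lost without S4 library 2 (adjusted p = 0.12) or S5 library 3 (adjusted p = 0.058). The means in isolated yolk were 187 RPKM for hnf-4 and 182 RPKM for gata456a, above those of both stages, and the part of yolk in the fall of hnf-4 was not tested. Of the 6 gut regulators 2 rose, 1 fell and 3 did not pass the test.

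Of 11 cathepsin-type transcripts 4 rose, 2 by the strict rule, and none fell, beside 17.3% and 7.33% of all tested transcripts. These were also found by name within the study's supplementary lists, so that the count is a description. A digestive cysteine proteinase (SMED30018252) was at 10.3, 14.3, 17 and 23.4 RPKM in S4 and 257, 417, 866 and 518 RPKM in S5 (4.90 ± 0.43 SE, adjusted p = 1.3e-08). A second (SMED30035609) was at 8.78, 14.7, 25.8 and 57.8 RPKM and 353, 627, 987 and 615 RPKM (4.84 ± 0.53 SE, adjusted p = 2.9e-07). They are annotated to the same protein, so reads common to both could be shared between them. A cathepsin L2-like transcript (SMED30017940) was at 1.49, 1.51, 2.25 and 1.56 RPKM and 4.1, 24.2, 140.2 and 40.5 RPKM (3.96 ± 0.67 SE, adjusted p = 8.5e-05), with library 1 lowest and library 3 highest in S5. All 3 were apart between the stages. A transcript whose best protein match is vitellogenin (SMED30003809), a large lipid carrier, was at 1.01, 1.11, 2.14 and 1.54 RPKM and 35.7, 97.2, 140.1 and 55.4 RPKM (5.59 ± 0.50 SE, adjusted p = 1.3e-08). It is a member of the study's adult gut list, which was chosen on these samples, and of that list 50 of 64 transcripts rose and none fell, with a median change of 2.82.

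The embryonic gut, which stores ingested yolk, was represented by 4 transcripts with a median change of 1.52. None passed the test in this fit, although for each the 4 S5 libraries lay above the 4 S4 libraries. The same separation held for 14.2% of all tested transcripts. CTSL-like (SMED30023322), a cathepsin, was at 51.3, 116, 108 and 224 RPKM in S4 and 473, 543, 683 and 638 RPKM in S5 (2.40 ± 1.27 SE, adjusted p = 0.17). Its S6 and S8 means were 312 and 1.38 RPKM. In the fit on the S4 and S5 libraries alone the adjusted p of CTSL-like (SMED30023322) was 0.011 at the same change of 2.40, and all 4 transcripts passed 0.05.

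Transcripts of the other transient tissues mostly fell. Of the 4 temporary pharynx transcripts 3 fell, and of the 4 primitive ectoderm transcripts 3 fell, with median changes of -3.79 and -3.05. All 8 belong to the transcripts that the study selected on these same samples as enriched in early embryos and lower later, so that their direction is no independent evidence. MPEG1-like-1 (SMED30000139), named after macrophage-expressed gene 1, a perforin-family protein, is shown with MPEG1-like-2 (SMED30034696) by the 100-base targets of the study's hybridization probes, because the pair share a name and both fell.
MPEG1-like-1: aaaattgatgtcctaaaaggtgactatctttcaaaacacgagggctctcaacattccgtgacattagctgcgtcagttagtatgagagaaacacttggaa
MPEG1-like-2: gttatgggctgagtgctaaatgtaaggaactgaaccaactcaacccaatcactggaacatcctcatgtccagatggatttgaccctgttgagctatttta
The targets have no run of more than 6 bases in common, and over 399 bases of the cloned inserts 0 of 350 windows of 50 bases, the read length, came within 2 mismatches, so that these stretches give no shared reads. MPEG1-like-1 was at 13, 14.8, 12.6 and 24 RPKM in S4 and 0.678, 0.613, 0.293 and 0.813 RPKM in S5 (-4.55 ± 0.66 SE, adjusted p = 1.6e-05). MPEG1-like-2 was at 4.32, 4.39, 7.18 and 7.91 RPKM and 0.238, 0, 0.0686 and 0.0408 RPKM (-5.11 ± 0.69 SE, adjusted p = 6.4e-06). Both were apart between the stages. NFX-1-like (SMED30018638), listed here with the primitive ectoderm but also in the neoblast-enriched list, fell from 8.67, 9.24, 16 and 6.78 RPKM to 1.18, 0.656, 0.689 and 1.03 RPKM (-3.34 ± 0.69 SE, adjusted p = 0.00078). 4XLIM-like (SMED30025229), a LIM-domain protein, fell from 40.3, 44.1, 35 and 36.9 RPKM to 4.38, 6.68, 4.48 and 4.1 RPKM (-2.99 ± 0.80 SE, adjusted p = 0.0072). The study saw 4XLIM-like and gelsolin-like in the temporary pharynx as well as the primitive ectoderm. It saw spondin1-like, another ectoderm marker, also in parenchymal cells. The changes of these transcripts therefore belong to no single tissue. VAL-like (SMED30015313), a venom allergen-type secreted protein of the temporary pharynx, was lower in every S5 library, with 579.9, 1117, 1035 and 783 RPKM in S4 and 235, 37.5, 100.2 and 132 RPKM in S5, but did not pass (-3.03 ± 1.70 SE, adjusted p = 0.2). It passed in the fit on S4 and S5 alone (adjusted p = 0.013) and by voom on rebuilt reads (adjusted p = 0.023). Without S5 library 1 and S4 library 4, 2 transcripts of each tissue fell at adjusted p under 0.05. These embryos were whole, so that fewer cells of a type and less RNA per cell cannot be told apart, here or for any other transcript.

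Many falling transcripts belonged to the group that the study had selected, on these same samples, as enriched in early embryos, so that their direction is no independent evidence. Of the 39 strict calls lower in S5 35 were of that group. In its 3 clusters 154 of 413, 363 of 523 and 72 of 112 transcripts fell, with medians of -1.16, -3.10 and -2.11, while 27, 2 and 0 rose. EF1a-like-1 (SMED30004295) and EF1a-like-2 (SMED30012165), both named after the elongation factor that brings aminoacyl-tRNA to the ribosome, are shown by aligned windows of 200 bases from the inserts of the study's hybridization constructs, because their reads cannot be kept fully apart.
EF1a-like-1: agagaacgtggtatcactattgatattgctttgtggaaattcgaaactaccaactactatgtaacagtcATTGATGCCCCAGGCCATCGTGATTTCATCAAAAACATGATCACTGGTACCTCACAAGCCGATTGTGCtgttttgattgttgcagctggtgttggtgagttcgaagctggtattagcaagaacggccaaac
EF1a-like-2: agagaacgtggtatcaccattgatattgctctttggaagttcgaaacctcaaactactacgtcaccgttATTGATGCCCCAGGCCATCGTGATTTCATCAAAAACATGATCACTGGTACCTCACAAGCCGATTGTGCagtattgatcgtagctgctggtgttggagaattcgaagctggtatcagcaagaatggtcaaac
The capitals mark the longest run that the pair share, 68 bases, which is longer than a 50-base read. Of the 200 positions 179 were identical, and 34 of 151 windows of 50 bases in EF1a-like-1 matched EF1a-like-2 with at most 2 mismatches, the number that the alignment allowed. Reads from windows within the shared run match both copies equally well and could be counted for either. The study's alignment kept only matches of the best class, so that reads from windows with mismatches would go mainly to their own copy.

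EF1a-like-1 was at 751, 838, 1163 and 1052 RPKM in S4 and 149.9, 75.4, 23.6 and 48.3 RPKM in S5 (-3.96 ± 0.69 SE, adjusted p = 0.00013). EF1a-like-2 was at 525, 579, 799.8 and 872 RPKM and 191, 148, 46.6 and 98.1 RPKM (-2.67 ± 0.58 SE, adjusted p = 0.0011). In both, S5 library 1 held the most of its stage and library 3 the least. The next 3 transcripts, also of the embryo-enriched clusters, were chosen after their values were seen. A transcript matching elongation factor 2 (SMED30008930), the ribosomal translocase, fell from 316, 318, 364 and 392 RPKM to 42.2, 24.2, 15.2 and 27 RPKM (-3.76 ± 0.44 SE, adjusted p = 8.2e-07). One matching ribosomal protein S14 (SMED30003333) fell from 469, 486, 602 and 607 RPKM to 114, 75, 26.2 and 64.8 RPKM (-3.12 ± 0.42 SE, adjusted p = 6.9e-06). One matching heat shock cognate 71 (SMED30027920), a chaperone, fell from 369, 390.5, 539 and 462 RPKM to 72.4, 85.6, 51.3 and 62.3 RPKM (-2.70 ± 0.35 SE, adjusted p = 3.7e-06).

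Among the deepest falls were an initiation factor and a polymerase subunit, shown by their 100-base probe targets as transcripts that were under 1 RPKM in every S5 library.
eIF3-like (SMED30007988): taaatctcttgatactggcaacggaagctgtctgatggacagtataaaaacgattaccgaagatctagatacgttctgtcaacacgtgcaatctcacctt
RNA polymerase subunit-like (SMED30004615): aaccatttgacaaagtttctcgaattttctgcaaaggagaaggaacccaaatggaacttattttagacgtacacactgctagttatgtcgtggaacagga
The first, matching a subunit of translation initiation factor 3, was at 23.8, 33.4, 24.7 and 13.6 RPKM in S4 and 0.34, 0.346, 0.147 and 0.0874 RPKM in S5 (-6.21 ± 0.52 SE, adjusted p = 8.7e-09). The second, matching a subunit common to RNA polymerases, was at 16.5, 16.8, 15.8 and 9.77 RPKM and 0, 0.317, 0 and 0 RPKM (-6.66 ± 0.63 SE, adjusted p = 5.1e-08). A match to ATP-binding cassette subfamily F (SMED30031347), a family with roles in translation, fell from 42.9, 39.9, 38.4 and 28.7 RPKM to 0.479, 0.731, 0.29 and 0.592 RPKM (-5.95 ± 0.59 SE, adjusted p = 8.6e-08). No S5 library of these 3 transcripts reached 1 RPKM. dnaJ-like (SMED30033035), a co-chaperone, was at 15.9, 4.97, 14.3 and 3.3 RPKM in S4 and at 0, 0, 0 and 0.17 RPKM in S5 (-5.95 ± 0.56 SE, adjusted p = 3.6e-08, ratio of pooled RPKM 0.00549 with a 95% counting interval of 0.000659 to 0.0201).

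A set of 15 transcripts named by the study as expressed in embryonic cells, the EF1a-like pair and dnaJ-like included, gave 14 falls and 1 member that did not pass, with a median of -4.19. All 15 belong to the embryo-enriched clusters, so that their direction was set by the study's selection on these samples and is given as a description. tct-like (SMED30025427), a translationally controlled tumour protein, fell from 286, 326, 438 and 498 RPKM to 33.3, 13.8, 11.2 and 24.4 RPKM (-4.32 ± 0.76 SE, adjusted p = 0.00014). pelota-like (SMED30013711), a ribosome rescue factor, fell from 12.2, 13.5, 14.8 and 9.06 RPKM to 0.839, 0.0711, 1.33 and 0.79 RPKM (-4.19 ± 0.85 SE, adjusted p = 0.00059). UbE2 K-like (SMED30033871), a ubiquitin-conjugating enzyme, fell from 156, 119.8, 146 and 102 RPKM to 7.64, 3.4, 7.44 and 7.98 RPKM (-4.34 ± 0.67 SE, adjusted p = 3.3e-05). All S5 libraries of these 3 genes lay below all S4 libraries. The member that did not pass was PSMA5-like (SMED30018399), a proteasome subunit, at 73.9, 65.4, 99.5 and 128 RPKM in S4 and 57.9, 43, 5.58 and 28.8 RPKM in S5 (-1.81 ± 0.71 SE, adjusted p = 0.062), and it passed without S5 library 1 (adjusted p = 0.032). Levels at S3 differed among them: the S3 mean was 509.6 RPKM for UbE2 K-like and 71.2 RPKM for pelota-like, both above their S4 values, whereas tct-like was at 360.5 RPKM at S3 against a mean of 387 RPKM at S4.

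Transcription factors were found by name within the study's supplementary lists, which include the transcripts it chose as stage-enriched on these samples. Their counts are therefore a description and no independent evidence of the direction. Over all tested transcripts 17.3% rose and 7.33% fell. Of 92 listed transcription factors 67 rose, 6 fell and 19 did not pass, and by the strict rule 19 rose and 2 fell, with a median change of 2.66. One of the 2 (SMED30018792), matching kayak, the fly Fos, was at 12.6, 8.24, 9.79 and 10.03 RPKM in S4 and 0.193, 0.196, 0 and 0 RPKM in S5 (-5.89 ± 0.50 SE, adjusted p = 9.9e-09). The other (SMED30033266), matching the TATA-box-binding protein, named after its value was seen because it completes the pair, went from 2.89, 1.07, 4.41 and 2.41 RPKM to 0.169, 0.172, 0 and 0.087 RPKM (-3.71 ± 0.47 SE, adjusted p = 3e-06). Both of these belong to the embryo-enriched transcripts.

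Most transcripts of DNA replication and cell division did not pass the test, nor did 23724 of all 31489 tested transcripts. In replication 4.3% rose and 4.3% fell, and in division 5.6% and 5.6%, beside 17.3% and 7.33% of all tested transcripts. Of 23 DNA replication transcripts 1 rose, 1 fell and 21 did not pass, with a median change of 0.08, and of 18 cell division transcripts 1 rose, 1 fell and 16 did not pass, with a median of 0.42. PCNA (SMED30004304), the sliding clamp of DNA polymerases, was at 145, 92.8, 168 and 312 RPKM in S4 and 208, 241, 113 and 156 RPKM in S5 (0.08 ± 0.70 SE, adjusted p = 0.98). MCM2 (SMED30006979), a helicase subunit, was at 40.5, 36, 51.9 and 89 RPKM and 45.9, 52.2, 27.5 and 30.1 RPKM (-0.44 ± 0.53 SE, adjusted p = 0.59). cyclin B-1 (SMED30014394), the mitotic cyclin, was at 16.4, 11.7, 23.3 and 35.5 RPKM and 39.8, 42.6, 30.3 and 29.9 RPKM (0.82 ± 0.56 SE, adjusted p = 0.31). The libraries of the stages overlapped for each of these genes, and S4 library 4 was the highest S4 library for all 3. The calls in replication were both ribonucleotide reductase transcripts, for the enzyme that makes deoxynucleotides. M2-2 (SMED30010115) rose from 56.3, 71.3, 86.9 and 113 RPKM to 127, 161, 155 and 155 RPKM (0.91 ± 0.24 SE, adjusted p = 0.0058). ribonucleotide reductase alpha-like (SMED30029973), also a yolk-high transcript with a mean of 601 RPKM in isolated yolk, fell from 395, 400.5, 324 and 341 RPKM to 286, 244, 178 and 234 RPKM (-0.65 ± 0.20 SE, adjusted p = 0.016), but its change was 0.04 after quantile normalization and 0.18 without the TMM scaling, and the call was lost without S5 library 3 (adjusted p = 0.079). In cell division chk1-like (SMED30011043), a checkpoint kinase, rose from 1.27, 0.806, 3.78 and 5.01 RPKM to 7.04, 7.78, 5.96 and 7.02 RPKM (1.66 ± 0.58 SE, adjusted p = 0.037), a call lost without S4 library 1 or 2 or any S5 library, with adjusted p from 0.058 to 0.16. PLK1-like (SMED30025780), a mitotic kinase that is also 1 of the 600 yolk-high transcripts (mean of 469.9 RPKM in isolated yolk), fell from 305, 268, 243 and 242 RPKM to 177, 133, 112 and 136 RPKM (-0.93 ± 0.27 SE, adjusted p = 0.01), and its change was -0.30 after quantile normalization (adjusted p = 0.37) and -0.11 without the TMM scaling (adjusted p = 0.71). The part of yolk in both falls was not tested.

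Of 7 piwi, vasa, nanos and bruno-type genes, which act in neoblasts and germ cells, 4 rose and none fell, with a median change of 0.94. Among all tested transcripts 17.3% rose and 7.33% fell. piwi-1 (SMED30007406), the standard neoblast marker, was at 378, 344, 417 and 718 RPKM in S4 and 781, 719.6, 424 and 522 RPKM in S5 (0.42 ± 0.50 SE, adjusted p = 0.59), with overlapping libraries. piwi-2 (SMED30014446) rose from 117, 115, 175 and 281 RPKM to 312, 344, 283 and 295 RPKM (0.94 ± 0.32 SE, adjusted p = 0.03). piwi-3 (SMED30001362) rose from 109.7, 102, 159 and 254 RPKM to 304, 343, 289 and 293 RPKM (1.07 ± 0.32 SE, adjusted p = 0.014). vasa-1 (SMED30031463), a helicase, was at 212, 208, 300.0 and 482 RPKM and 349.6, 328, 199 and 244 RPKM (-0.05 ± 0.44 SE, adjusted p = 0.99). The piwi-3 call was lost without S4 library 1 or 2 (adjusted p = 0.054 and 0.063), and the piwi-2 call without S4 library 1 or 2 or S5 library 2, 3 or 4 (adjusted p from 0.05 to 0.11). Only piwi-2 and piwi-3 of these 4 were apart between the stages. bruno-like (SMED30023062), an RNA-binding protein required for neoblast upkeep, rose from 42.2, 37.8, 53 and 94.1 RPKM to 137, 146, 112 and 112 RPKM (1.24 ± 0.34 SE, adjusted p = 0.0088). nanos (SMED30034750), which marks germ cell precursors in planarians, was at 0, 0, 0 and 0.143 RPKM in S4 and 0.403, 1.13, 1.22 and 1.24 RPKM in S5 (3.03 ± 0.59 SE, adjusted p = 0.00041, 1 rebuilt read in S4, ratio of pooled RPKM 18.4 with a 95% counting interval of 3.11 to 745). Whether the change of piwi-1 differed from that of piwi-2 was not tested.

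In the wider neoblast-enriched list 42 of 242 transcripts rose and 11 fell, with a median of 0.31, so that 17.4% rose beside 17.3% of all tested transcripts. In the subclass lists, named for neoblast classes of the adult, 29 of 51 zeta transcripts rose and 5 fell (median 1.88), 44 of 76 sigma transcripts rose and 1 fell (median 1.61), and 16 of 45 tested gamma transcripts rose and 8 fell (median 0.77). Changes in the neoblast-enriched list ran from -3.34 to 5.37, and 4.5% of it fell beside 7.33% of all tested transcripts. The 4 members that follow, a histone variant first, are among those that rose and do not stand for the list. H2A.V-like (SMED30017222) rose from 10.7, 12.2, 21.7 and 48.5 RPKM to 192, 275, 239 and 211 RPKM (3.55 ± 0.89 SE, adjusted p = 0.004). soxP-1 (SMED30019097), a Sox factor of sigma neoblasts, rose from 5.28, 7.74, 11.6 and 15 RPKM to 40.8, 63.6, 48.2 and 43.3 RPKM (2.38 ± 0.30 SE, adjusted p = 2.2e-06). nlk-1 (SMED30035424), a Nemo-like kinase, rose from 4.08, 6.88, 6.82 and 14.2 RPKM to 52.8, 82, 91.3 and 69.2 RPKM (3.304 ± 0.39 SE, adjusted p = 9.2e-07). inx13 (SMED30023483), a gap junction innexin, rose from 3.72, 2.75, 4.63 and 16.8 RPKM to 42.6, 52.2, 60.3 and 50.02 RPKM (3.23 ± 0.63 SE, adjusted p = 0.00042). S4 library 4 was the highest S4 library for all 4 of these transcripts.

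**Figure D4:**
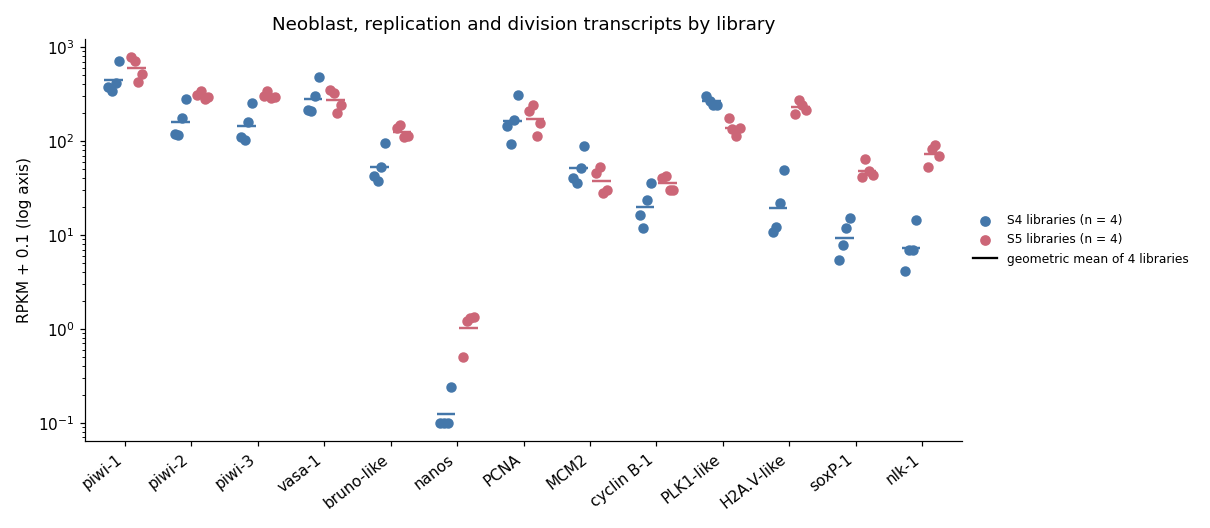
RPKM plus 0.1 on a log axis for 13 neoblast, replication and division transcripts, 1 point per library, with the geometric mean of each stage as a bar. The stages overlap for piwi-1, vasa-1, PCNA, MCM2 and cyclin B-1, and are apart for piwi-2, piwi-3, bruno-like, nanos, PLK1-like, H2A.V-like, soxP-1 and nlk-1.

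Of 12 Wnt pathway members 7 rose, none fell and 5 did not pass, with a median of 1.64. Over all tested transcripts 17.3% rose and 7.33% fell. The ligand wntP-3 (SMED30001470) was at 2.11, 6.01, 2.42 and 3.87 RPKM in S4 and 22, 10.7, 10.8 and 10.2 RPKM in S5 (1.91 ± 0.64 SE, adjusted p = 0.028), and here S5 library 1 was the highest. The call was lost without S5 library 1 (adjusted p = 0.077), S4 library 1 (adjusted p = 0.086) or S4 library 3 (adjusted p = 0.069). Wnt5 (SMED30016207), a non-canonical ligand, was listed at 0 throughout S4 and at 0.12, 0.669, 1.81 and 0.307 RPKM in S5 (2.59 ± 0.61 SE, adjusted p = 0.0027). Wnt2-1 (SMED30026602), another ligand, was at 0.144, 0.147, 0.127 and 0.594 RPKM in S4 and 0.0928, 0.283, 1.003 and 0.143 RPKM in S5 and did not pass (0.26 ± 0.59 SE, adjusted p = 0.8). The ligands thus ranged from calls to overlapping stages. Vang-1 (SMED30023352), a planar polarity membrane protein, rose from 0.431, 0.219, 0.666 and 0.691 RPKM to 3.05, 5.04, 6.06 and 4.42 RPKM (3.02 ± 0.56 SE, adjusted p = 0.00027). glypican-1 (SMED30027983), a heparan sulfate proteoglycan that binds several ligands, rose from 1.39, 1.49, 3.23 and 6.74 RPKM to 18.8, 26.7, 36.8 and 28.5 RPKM (3.32 ± 0.59 SE, adjusted p = 0.00015).

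Of 20 BMP, activin and noggin transcripts 8 rose, 3 fell and 9 did not pass the test. Among all tested transcripts 17.3% rose and 7.33% fell. The list had a median change of 0.56, beside 0.39 over all tested transcripts. After quantile normalization these medians were 0.05 and -0.05. The 3 that fell are named after the inhibin and activin branch of the family. An inhibin-like ligand (inhibin-1 c, SMED30015702) fell from 23.5, 11.2, 17.6 and 7.36 RPKM to 0.388, 0.46, 0.0559 and 0.664 RPKM (-5.01 ± 1.01 SE, adjusted p = 0.00058). Another (inhibin-1 a, SMED30001798) fell from 27.6, 2.48, 19.4 and 1.67 RPKM to 0.653, 0.133, 0.283 and 0.269 RPKM (-4.15 ± 0.68 SE, adjusted p = 6.3e-05). follistatin (SMED30035357), the activin antagonist, fell from 27.2, 17, 14.7 and 13.2 RPKM to 3.72, 2.79, 3.33 and 3.04 RPKM (-2.40 ± 0.44 SE, adjusted p = 0.00024). The S4 libraries of inhibin-1 a were widely spread, and both inhibin-like ligands belong to the embryo-enriched transcripts. The S3 and S6 means of inhibin-1 a were 0.216 and 0.111 RPKM. Among the members that rose, smad6/7-2 (SMED30019744), an inhibitory Smad, was listed at 0 throughout S4 and at 1.999, 2.96, 4.01 and 4.11 RPKM in S5 (5.02 ± 0.57 SE, adjusted p = 5.1e-07, at least 21.7-fold higher). bambi a (SMED30005819), a BMP pseudoreceptor, was listed at 0 in S4 and at 0.526, 3.27, 3.41 and 1.01 RPKM in S5 (4.08 ± 0.70 SE, adjusted p = 0.0001). bambi a is in the study's adult eye list, which was chosen on these samples, so that its direction is no independent evidence. noggin 1 (SMED30017196), a BMP antagonist, rose from 0.233, 0, 0 and 0 RPKM to 0.45, 2.14, 2.21 and 0.617 RPKM (3.14 ± 0.54 SE, adjusted p = 0.00011, ratio 34.5 with a 95% counting interval of 5.99 to 1380.0). Unlike these, the bmp-like ligand (SMED30009537) was listed at 0 in S4 and at 0.137, 0.0697, 0.0593 and 0 RPKM in S5 and did not pass (0.67 ± 0.54 SE, adjusted p = 0.39).

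Of 20 hedgehog, FGF and guidance transcripts 12 rose and none fell, with a median of 2.52. The list thus had 60.0% higher, beside 17.3% of all tested transcripts. patched-like (SMED30029695), the hedgehog receptor, rose from 0.056, 0.228, 0.296 and 0.436 RPKM to 1.58, 2.18, 1.76 and 2.29 RPKM (2.66 ± 0.51 SE, adjusted p = 0.00033). fgfr4 (SMED30009204), an FGF receptor, rose from 0.424, 0.172, 0.299 and 0.427 RPKM to 1.64, 3.58, 8.61 and 3.25 RPKM (3.15 ± 0.47 SE, adjusted p = 2.4e-05). The libraries of the stages were apart for both receptors. Among guidance cues, slit-2 b (SMED30000699) rose from 0.145, 0, 0.51 and 0.331 RPKM to 3.16, 7.23, 8.45 and 7.03 RPKM (4.45 ± 0.63 SE, adjusted p = 1.3e-05). slit-2 b is in the study's adult eye list, which was chosen on these samples, so that its direction is no independent evidence. roboB (SMED30025835), of the family of slit receptors, rose from 0.372, 0.252, 0.438 and 0.767 RPKM to 2.75, 3.69, 4.33 and 3.4 RPKM (2.77 ± 0.53 SE, adjusted p = 0.00035). netrin 1 (SMED30012792) was listed at 0 in S4 and at 0.467, 0.871, 1.11 and 0.721 RPKM in S5 (3.10 ± 0.53 SE, adjusted p = 9.3e-05, at least 12.4-fold higher). The list holds 6 transcripts named slit-2, and reads common to them may be divided among them.

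Several of the largest strict rises were of transcripts outside the gene lists. Of the 116 strict rises, 29 were listed at 0 in all S4 libraries. SMED30006466, matching a hypothetical protein of an annelid, was listed at 0 throughout S4 and at 4.62, 11.1, 17.6 and 15.2 RPKM in S5 (6.77 ± 0.74 SE, adjusted p = 3.4e-07, at least 79-fold higher). SMED30000513, outside the annotation used here, was at 3.38, 1.38, 5.38 and 62.9 RPKM in S4, where library 4 was the highest, and at 522, 688, 1062 and 620.4 RPKM in S5 (6.75 ± 0.84 SE, adjusted p = 2.1e-06). SMED30009451, matching an ADAMTS-type metalloproteinase, an enzyme family of the extracellular matrix, was at 0, 0.0598, 0.0519 and 0.35 RPKM in S4 and 8.7, 20.8, 23.3 and 19.6 RPKM in S5 (6.55 ± 0.60 SE, adjusted p = 2.6e-08), but at only 0.353 RPKM at S6 and 0.241 RPKM at S3, so that of these 4 stages S5 had the highest mean. SMED30013003, also outside that annotation, went from 0, 0, 0 and 0.839 RPKM to 13.2, 14.1, 11.4 and 9.33 RPKM (6.10 ± 0.81 SE, adjusted p = 4.9e-06) and stood at 3.32 RPKM at S6. A member of the zeta list, the calumenin-like transcript SMED30026101, of a family of calcium-binding proteins of the secretory pathway, rose from 0, 0, 0 and 0.284 RPKM to 1.46, 6.62, 16.9 and 15.4 RPKM (5.69 ± 0.73 SE, adjusted p = 3.4e-06).

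The most abundant transcripts of both stages were the same 10, all of them among the 600 yolk-high transcripts. Their means ran from 28220 to 455400 RPKM in S4 and from 13510 to 228500 RPKM in S5. Of the 600 yolk-high transcripts 355 fell and none rose, with a median change of -1.11. The share that fell was 59.2%, beside 7.33% of all tested transcripts. After quantile normalization 176 fell (median -0.73), and without the TMM scaling the median was -0.28, beside medians of -0.05 and 0.79 over all tested transcripts. The list was chosen as transcripts much higher in isolated yolk than in S8 and adult libraries, and S4 and S5 were not used. A fall by S8, a later stage of the same series, was thus part of the choice, so that the count is a description.

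**Figure D5:**
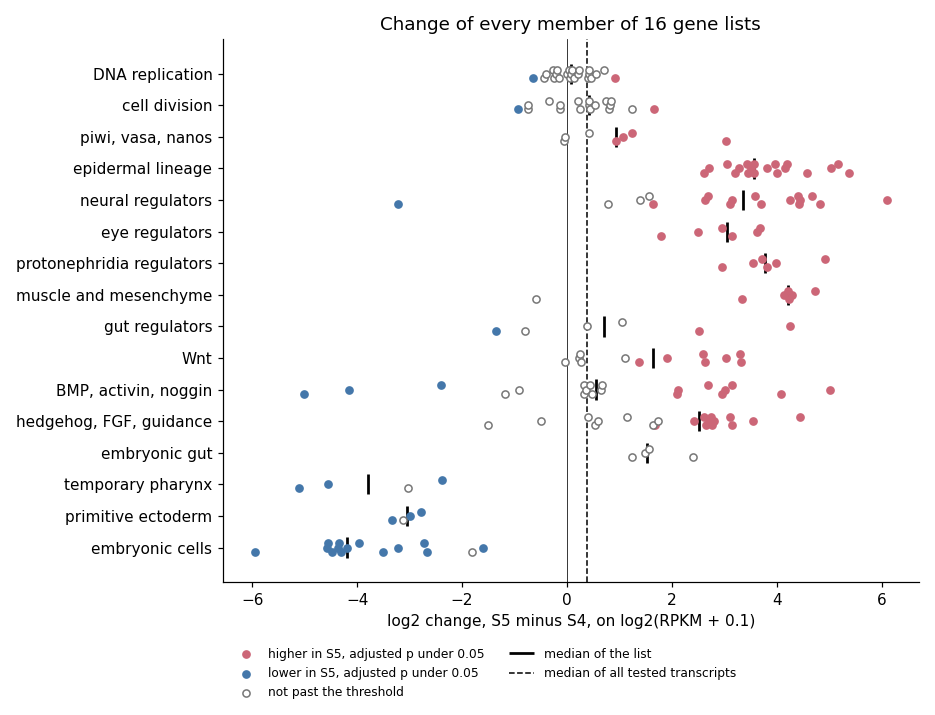
Log2 change from S4 to S5 (horizontal axis) of every tested member of 16 gene lists (rows), filled where the adjusted p was under 0.05, with the median of each list as a bar and that of all tested transcripts (0.39) as a dashed line. Epidermal, neural, eye, excretory and mesodermal regulators lie mostly right of the line, DNA replication and cell division lie around it, and temporary pharynx, primitive ectoderm and embryonic cell transcripts lie left of 0, with the members of the embryonic gut to the right of 0.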

How the data were processed

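The deposited table gave RPKM per transcript for 35262 transcripts in 40 libraries. According to the study's methods, the authors sequenced polyadenylated RNA of single embryos as single-end 50-base reads, processed them with CASAVA 1.8.2, aligned them to a S. mediterranea transcriptome with Bowtie, allowing 2 mismatches and several matches per read, and computed the deposited RPKM with TMM scaling in edgeR. How reads with several matches were divided is not given in the sources used here, so near-identical copies are uncertain. No rRNA transcript was in the table.

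From these values, log2(RPKM + 0.1) was fitted by group with limma 3.58.1 in R 4.3.3 (trended empirical Bayes) on the 32 yolk and embryo libraries, which share 1 estimate of the spread, over 31489 transcripts with an RPKM sum of at least 1, with Benjamini-Hochberg adjustment and 2-sided tests. Reads were rebuilt from the smallest RPKM steps for 34114 transcripts. Where lengths were known, 100% of values were whole to within 0.02. Bounds used a floor of 3 reads over a stage, and ratios have exact 95% intervals. Bounds and intervals cover counting error only.

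The text names members of gene lists taken from the study or written by hand, the 15 largest non-overlapping strict calls in each direction, the 10 most abundant transcripts of each stage and the 3 extremes of each keyword or tissue list. Keyword lists were searched only within the study's supplementary lists, which include transcripts selected as stage-enriched on these samples. The elongation factor 2, ribosomal protein S14 and heat shock cognate 71 transcripts and the TATA-box-binding protein transcript were added after their values were seen. Members and lists were chosen with earlier results of these data known. Other pseudocounts, filters, scalings, fits and left-out libraries were tried. The fit was tested on simulated data. Some list members are counted in their lists but not reported here by name.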

Additional observations from a re-analysis of the deposited data

Results flagged for a closer look

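In each group of 4 libraries the highest or lowest value was compared with its nearest neighbour by Dixon's ratio at its 95% critical value, over 170 groups of the named transcripts. Chance flags about 1 in 20 such groups, and 11 were flagged here, 7 of them for S5 library 1. In that library NB.32.1g stood apart at 18.6 RPKM, AGAT-1 at 11.9 RPKM, AGAT-2 at 9.27 RPKM, prox-1 at 0.509 RPKM, nanos at 0.403 RPKM and ribonucleotide reductase M2-2 at 127 RPKM, each below the other 3 S5 libraries, and wntP-3 at 22 RPKM, above them. S4 library 4 stood apart at 9.77 RPKM for the RNA polymerase subunit-like transcript SMED30004615, below the other S4 libraries, and at 0.594 RPKM for Wnt2-1, above them. S4 library 3 stood apart at 2.25 RPKM for the cathepsin L2-like transcript SMED30017940, above the others. S5 library 2 was low for UbE2 K-like, at 3.4 RPKM. The 7 flags of S5 library 1 go with its yolk share of 65.03%, the highest in S5, whose part in them was not tested.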

How the results depend on the processing

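Of 89 named transcripts called at adjusted p under 0.05, 73 were called in the same direction under all 19 alternatives. The 1 that changed sign was ribonucleotide reductase alpha-like (SMED30029973), at 0.044 with quantile-normalized values and 0.182 when the TMM scaling was undone, no longer called in either. Strict counts, 116 higher and 39 lower, became 44 and 20 with a pseudocount of 0.01 RPKM, 60 lower with 1 RPKM, 134 lower with quantile-normalized values, 267 and 12 with the TMM scaling undone, 355 and 161 with sample weights, 175 higher by limma-voom on rebuilt reads, and 0 and 0 in a fit on S4 and S5 alone. Counts at adjusted p under 0.05 became 3083 higher with quantile-normalized values, 11003 higher and 666 lower with the TMM scaling undone, and 3248 higher in the fit on S4 and S5 alone. Leaving out 1 library at a time gave 43 to 129 strict calls higher and 15 to 40 lower, and 3842 to 6192 higher and 1694 to 2523 lower at adjusted p under 0.05. An alternative chosen after seeing the data, without S5 library 1 and S4 library 4, gave 144 strict calls higher and 21 lower. The reduced fits also had fewer libraries, and the cause of these shifts was not tested.

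The study pooled a replicate of every embryonic time point in each sequencing lane, but does not say that the replicate number marks the lane. Deviations of same-numbered S4 and S5 libraries correlated at 0.081, -0.039, 0.052 and -0.004 across transcripts. These values cannot tell whether same-numbered libraries shared a lane, and the libraries were treated as unpaired. With the replicate number as a block the strict counts were 106 higher and 44 lower, and 5450 and 2305 at adjusted p under 0.05. Depth limits transcripts near 0: a transcript listed at 0 in all S4 libraries was not detectable at these depths, which does not show that it was absent.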
